A study of Mus musculus with 10 samples.

Results

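Genes of alkaline phosphatase and phosphate handling were described in laser-captured ameloblasts and stratum intermedium of the mouse enamel organ. The 7 genes, chosen by symbol, were Alpl, Phospho1, Enpp1, Ank, Slc20a1, Slc20a2 and Slc34a2, out of 17305 genes listed in at least one of 2 tables of normalized counts. All 7 were listed among the 16638 genes of the stratum intermedium table, and 6 among the 16292 of the ameloblast table, where Slc34a2 was not listed. Each of the 13 gene and layer combinations passed the filter on low values, a mean of at least 10 over the 5 libraries of its table.

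Each layer had 2 libraries of wild-type (WT) mice and 3 of mice labelled as knockout (KO) for claudin-10, a tight junction protein that forms paracellular ion channels. The cells were captured from frozen sections of hemi-mandibles. The sources used here give neither age nor strain, and do not say which part of Cldn10 was deleted or in which tissues. Library names carried the prefixes WT10, WT5, KO1, KO3 and KO9 in both layers, and libraries are called by prefix below. The prefixes were taken to mark 5 mice, which the labels do not state, so the p-values may measure only technical spread. Replicate numbers in the sample titles would pair the KO libraries of the 2 layers otherwise. KO1, KO3 and KO9 are KO replicates 1, 3 and 2 in ameloblasts, and 2, 1 and 3 in the stratum intermedium. Every paired comparison of the layers below rests on the prefix. Normalized counts summed to between 21006977 and 26856177 per library, and the read depth behind them is unknown.

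Hard tissue forms where calcium meets inorganic phosphate, and inorganic pyrophosphate blocks the growth of the mineral. Tissue-nonspecific alkaline phosphatase, encoded by Alpl and held on the outer cell surface by a glycosylphosphatidylinositol (GPI) anchor, splits pyrophosphate into phosphate. ENPP1 makes pyrophosphate from extracellular ATP, and ANK, a membrane protein, raises it outside the cell. In the enamel organ, strong alkaline phosphatase activity is a classic mark of the stratum intermedium.

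Cldn10 was lower in each KO library than in each WT library of its layer. In ameloblasts its highest KO value was 407.8 and its lowest WT value 600.1, and in the stratum intermedium they were 1003 and 2365. The ameloblast markers were 10 genes, among them Amelx, Ambn and Enam, with Klk4 and Wdr72 at 0 in some ameloblast libraries. They took 2.25% to 9.19% of the summed values in ameloblast libraries and 0.136% to 0.957% in stratum intermedium libraries. Amelx made up most of these shares, and not every marker was higher in ameloblasts. With values scaled to a library sum of 1000000, Odam averaged 28.5 in ameloblasts and 85.9 in the stratum intermedium. Wdr72, at 0.84 and 1.12, also went the other way, and Klk4 was near even, at 1.53 and 1.36. The 9 stratum intermedium and papillary layer markers, with Alpl left out, took 0.0535% to 0.141% in ameloblasts and 0.0762% to 0.273% in the stratum intermedium. These ranges overlapped. Odontoblast, pulp and bone markers (12 genes, among them Col1a1, Ibsp and Dspp) took 3.79% to 6.81% of ameloblast libraries and 2.65% to 7.63% of stratum intermedium libraries. Osteoblasts and odontoblasts also express Alpl, Phospho1 and Enpp1, and the part of such cells in the values below was not tested. Endothelial markers (6 genes) took at most 0.0335% of any library. The 7 osteoclast markers took 0.103% to 0.927%. Their mean was lower in KO for 7 of 7 in both layers, but in the stratum intermedium higher for 7 of 7 without WT5, and also with sex in the fit. Over all genes, 53% in ameloblasts and 51.9% in the stratum intermedium had a higher mean in KO. In bulk libraries, fewer cells of a type and less RNA per cell cannot be told apart. WT10 had the most genes listed at 0, 706 in ameloblasts and 854 in the stratum intermedium. Prefixes KO1 and KO3 had the Xist transcripts of females, and WT10, WT5 and KO9 had Y-linked transcripts.

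Alpl (ENSMUSG00000028766) lies on the minus strand of chromosome 4, from 137741733 to 137796384 in GRCm38. The RefSeq table gives 2 start sites for it, and each deposited Alpl value is a sum over the whole gene that does not separate them. The windows from 250 bases before to 50 bases after each start are printed because a choice between them would not be visible in the values. They are chr4:137796335-137796634 for the first and chr4:137766426-137766725 for the second, both read 5′ to 3′ on the minus strand of GRCm38.p6. Capitals mark the GC box, searched as GGGCGG on both strands with overlaps counted.
Alpl start site 1: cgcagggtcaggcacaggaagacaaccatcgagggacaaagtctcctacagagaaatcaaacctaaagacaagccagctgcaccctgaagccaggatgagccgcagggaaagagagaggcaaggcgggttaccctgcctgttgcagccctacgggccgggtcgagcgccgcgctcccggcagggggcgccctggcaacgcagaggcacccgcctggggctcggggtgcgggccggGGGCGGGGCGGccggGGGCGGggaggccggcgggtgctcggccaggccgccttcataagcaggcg
Alpl start site 2: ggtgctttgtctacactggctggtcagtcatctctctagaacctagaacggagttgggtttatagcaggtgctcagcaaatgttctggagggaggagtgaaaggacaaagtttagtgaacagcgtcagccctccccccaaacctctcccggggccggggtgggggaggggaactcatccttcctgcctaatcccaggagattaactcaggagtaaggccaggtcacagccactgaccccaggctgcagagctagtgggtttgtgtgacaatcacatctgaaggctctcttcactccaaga
The first window held 3 matches and was 70% G or C. The second held 0 and was 54.3% G or C. At least 1 match was found in 35.7% of the 32851 windows of the RefSeq table. A match is a description of the letters and not of a bound site.

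Alpl was the most abundant of these genes in both layers. Levels of different genes were compared as scaled levels, the value in a library scaled to a sum of 1000000 and divided by the kilobases of merged exons (GENCODE annotation of GRCm38). By scaled level Alpl stood at 128 ± 36.5 in ameloblasts (SD, n = 5) and 255 ± 73.4 in the stratum intermedium (SD, n = 5). Ank followed at 76.8 ± 19.4 and 47.8 ± 16.3, and Slc20a2 at 33.2 ± 8.95 and 25.5 ± 5.25. Enpp1 stood at 8.71 ± 1.34 in ameloblasts and 7.16 ± 3.26 in the stratum intermedium. At the low end were Phospho1, at 3.8 ± 3.34 and 3.26 ± 1.90, and Slc20a1, at 2.96 ± 1.94 and 4.50 ± 1.35. Slc34a2, the sodium-phosphate cotransporter of absorptive epithelia, stood at 0.80 ± 0.47 in the stratum intermedium, the lowest level.

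Not all neighbours in that order were apart. In ameloblasts the Alpl and Ank ranges overlapped, with Alpl above Ank in 4 of 5 libraries, the exception being WT10. In the stratum intermedium the lowest Alpl library, at 187 on the same scale, lay above the highest Ank library, at 71.1, while Ank and Slc20a2 overlapped, with Ank higher in 4 of 5 libraries. Slc20a2 lay above Enpp1 in each of the 5 libraries of both layers with ranges apart. Below it the ranges of neighbours overlapped, Enpp1 with Phospho1 and Phospho1 with Slc20a1 in ameloblasts, and Enpp1 with Slc20a1, Slc20a1 with Phospho1 and Phospho1 with Slc34a2 in the stratum intermedium.

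**Figure D1:**
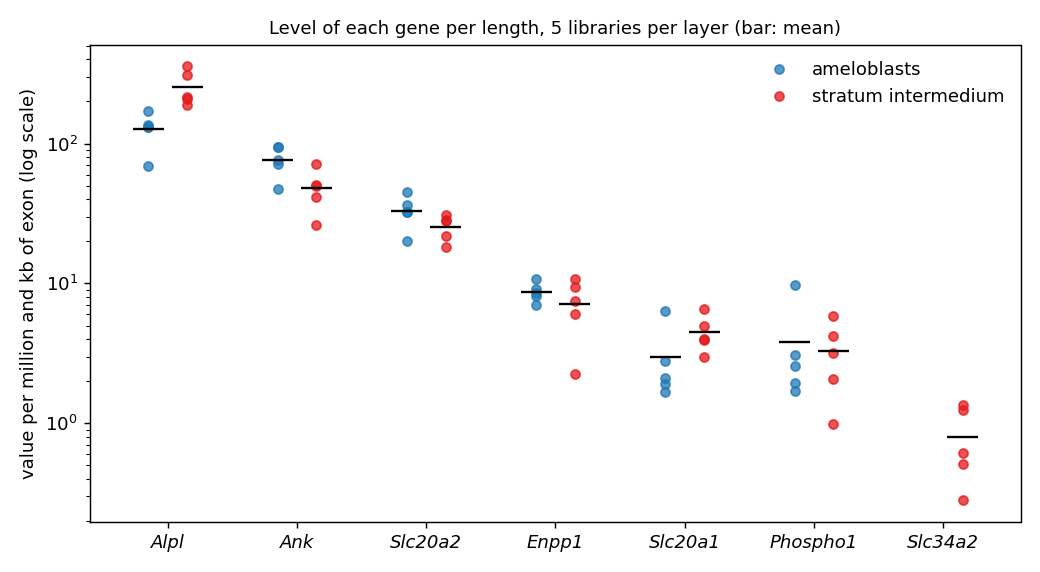
Scaled level of each gene, the value per 1000000 of a library's sum and per kilobase of merged exons (log axis), with 1 point per library, 5 libraries per layer and the mean as a bar. Alpl leads in both layers, and its stratum intermedium points, from 187 up, lie above its ameloblast points, up to 170.

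Alpl stood higher in the stratum intermedium than in ameloblasts of the same prefix in all 5 pairs. Because each table has its own normalization, no level was tested across layers, and values scaled to the same library sum are set side by side. The log2 difference, stratum intermedium minus ameloblasts, was 2.16 in WT10, 0.66 in WT5, 1.43 in KO1, 0.14 in KO3 and 0.66 in KO9, with a mean of 1.01 ± 0.79 (SD, n = 5). The background was the 14175 genes above 0 in all 10 libraries and with a mean of at least 10 in each table. On the same scale 21% of them were higher in the stratum intermedium in all 5 pairs, and their median difference was 0.25. With median ratios over shared genes as the scaling, the Alpl mean was 0.77 and KO3 turned to -0.04. The difference was thus smallest in KO3 and largest in WT10. The stratum intermedium markers, without Alpl, were higher in the stratum intermedium library in 4 of 5 pairs, and lower in KO3, with 0.109% there against 0.141% in its ameloblast library.

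Ank was the gene with the opposite order. It was lower in the stratum intermedium in 5 of 5 pairs, by a mean log2 difference of -0.72 ± 0.42 (SD, n = 5), against a background of 6.02% of genes lower there in all pairs. The direction held in all 5 pairs under each of the 3 other scalings. Slc20a1 was higher in the stratum intermedium in 5 of 5 pairs when scaled to the library sum (mean 0.74 ± 0.65), but in 4 of 5 with median ratios, where KO9 turned to -0.14. Phospho1 (mean -0.14 ± 0.92), Enpp1 (-0.45 ± 0.96) and Slc20a2 (-0.36 ± 0.62) were higher in the stratum intermedium in 3, 2 and 1 of 5 pairs.

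A ratio of 2 genes within a library does not depend on how the tables were scaled, so 3 ratios were tested between layers. The ratio of Alpl to Enpp1 sets the enzyme that removes pyrophosphate against one that makes it. It was higher in the stratum intermedium in 5 of 5 pairs, by a mean log2 difference of 1.46 ± 1.52 (SD, n = 5, two-sided exact sign-flip permutation p = 0.062, the smallest that 5 pairs allow, adjusted p = 0.125 over 3 ratios). The differences were 4.08 in WT10, 1.25 in KO9, 1.04 in KO1, 0.66 in KO3 and 0.25 in WT5. WT10 stood far above the other pairs, and without it the mean was 0.80. Its stratum intermedium library held the lowest Enpp1 value of all 10 libraries, and also the lowest share of odontoblast, pulp and bone markers, 2.65%. The part of those cells in the ratio was not tested.

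The other ratios pointed the same way with exceptions. Alpl to Phospho1 was higher in the stratum intermedium in 4 of 5 pairs (mean 1.14 ± 1.33, SD, n = 5, exact permutation p = 0.125, adjusted p = 0.125). Slc20a1 to Slc20a2 was higher there in 4 of 5 pairs (mean 1.10 ± 0.97, SD, n = 5, exact permutation p = 0.125, adjusted p = 0.125). The exception was KO3 for the first and WT5 for the second.

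**Figure D2:**
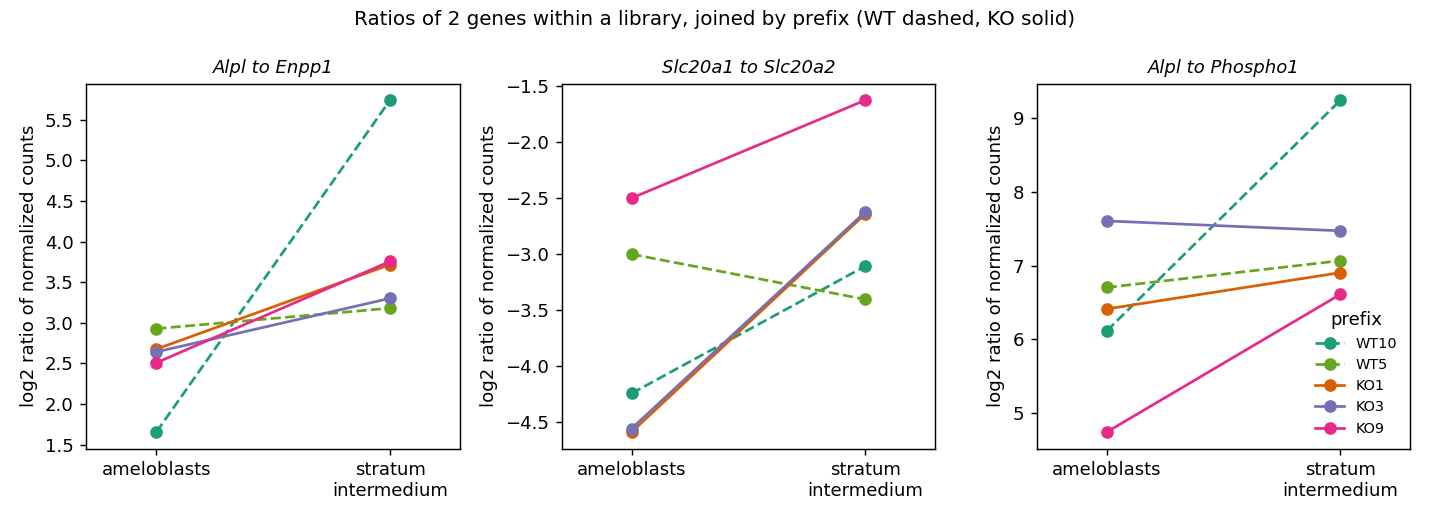
Log2 ratio of the normalized counts of 2 genes in each library, with the ameloblast and stratum intermedium libraries of a prefix joined by a line (WT dashed, KO solid). All 5 lines of Alpl to Enpp1 go up, that of WT10 by 4.08.

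The comparison of KO with WT asked whether these genes differ by genotype in either layer. None of them passed an adjusted p of 0.05. With limma, 0 of 16212 genes passed in ameloblasts (0%) and 0 of 16543 in the stratum intermedium (0%). An unadjusted p under 0.05 was found for 0 of the 6 genes in ameloblasts, against 3.07% of all genes (2.25% higher and 0.82% lower in KO), and for 0 of the 7 in the stratum intermedium, against 2.06% (1.27% higher and 0.786% lower). The adjusted p-values of the genes here were 0.989 in ameloblasts and 1 in the stratum intermedium. The mean log2 value was higher in KO for 5 of the 6 genes in ameloblasts, where 53% of all genes were higher, and the median difference was 0.46 against 0.04 over all genes. For the stratum intermedium the count was 3 of 7, where 51.9% of all genes were higher, and the median was -0.14 against 0.02. The ameloblast median was 0.24, with 4 of 6 higher, without KO9. The stratum intermedium median turned to between 0.022 and 0.041, with 4 of 7 higher, without WT10, WT5, KO1 or KO3, and to 0.33 with sex in the fit. The 2 genotypes were apart, with no overlap between libraries, for 0 of 6 genes in ameloblasts, against 18.4% of all genes (9.09% with KO above and 9.26% with KO below). In the stratum intermedium they were apart for 2 of 7, against 15.2% (7.76% and 7.44%). All log2 differences are KO minus WT on the log2(normalized count + 1) scale, with standard errors from limma.

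**Figure D3:**
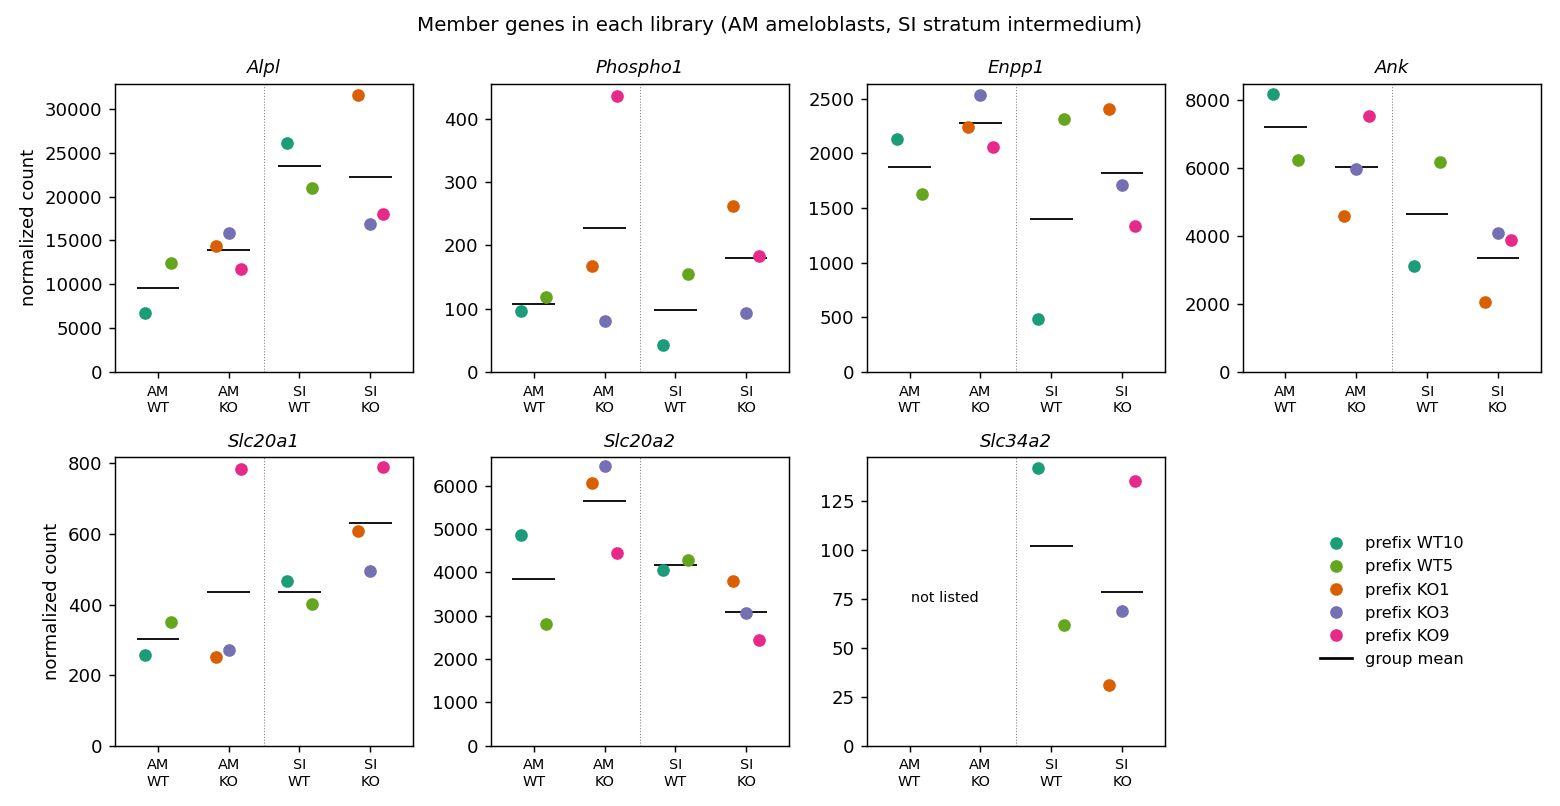
Normalized count of each gene in each library, with points coloured by prefix and a bar for the mean of the 2 WT or 3 KO libraries; AM is ameloblasts and SI is stratum intermedium. In the stratum intermedium all 3 KO points lie below both WT points for Slc20a2 and above them for Slc20a1, and the other panels overlap.

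Of the phosphatases, Alpl in ameloblasts was at 6714 in WT10 and 12402 in WT5, and at 14345 in KO1, 15829 in KO3 and 11710 in KO9. The KO9 library lay below WT5, so the groups overlapped, and the log2 difference was 0.60 (SE 0.32, unadjusted p = 0.0981 in limma). WT10 alone was low: without it the difference was 0.16, and without WT5 it was 1.04. Stratum intermedium markers stood at 0.0561% and 0.0535% in the WT ameloblast libraries and at 0.129%, 0.141% and 0.0922% in KO1, KO3 and KO9. All 3 KO libraries thus had higher shares of these marker transcripts than both WT libraries. More cells of the neighbouring layer and a higher level of these genes within ameloblasts cannot be told apart, and the part of either in the Alpl values was not tested.

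In the stratum intermedium Alpl was at 26092 in WT10 and 20948 in WT5, and at 31622 in KO1, 16866 in KO3 and 18039 in KO9. The log2 difference was -0.14 (SE 0.30). KO1 and WT10 were the highest in Alpl, and the same 2 libraries had the highest share of stratum intermedium markers, 0.272% and 0.273%, against 0.0762% to 0.111% in the other 3. Krt17 weighed most in these shares, at 45342 in KO1 and 36325 in WT10 against 7481 to 13027 in the other 3. The markers did not all move alike. Dsc3 was also highest in these 2 libraries, at 5777 and 8979, while Thbd was lowest in KO1, at 515. Ameloblast and stratum intermedium differences in Alpl themselves differed by 0.74 (SE 0.56, adjusted p = 0.864 in limma on the paired prefixes).

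Phospho1 (ENSMUSG00000050860, chromosome 11, 95824499 to 95832140, plus strand) encodes a phosphatase that frees phosphate from phosphocholine and phosphoethanolamine inside matrix vesicles of bone and dentin. In ameloblasts it was at 95.7 in WT10 and 118 in WT5, and at 167 in KO1, 80.2 in KO3 and 436 in KO9. KO9 stood far above the rest, and the difference of 0.76 (SE 0.72) became 0.12 without it and 2.03 with sex in the fit. Its stratum intermedium values were 42.0 in WT10 and 155 in WT5, and at 263 in KO1, 93.9 in KO3 and 183 in KO9, a difference of 1.02 (SE 0.73) that became 0.093 without WT10 and 1.95 without WT5. KO and WT overlapped in both layers, and the lowest library, WT10 of the stratum intermedium, also had the lowest share of odontoblast, pulp and bone markers, 2.65%. Its exons overlap those of Abi3 on the opposite strand and Zfp652 on the same strand in the annotation, so some of its reads may not be its own.

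Of the genes that supply extracellular pyrophosphate, Enpp1 (ENSMUSG00000037370, chromosome 10, 24637914 to 24712159, minus strand) was even across ameloblast libraries. It was at 2131 in WT10 and 1629 in WT5, and at 2244 in KO1, 2536 in KO3 and 2058 in KO9, a difference of 0.29 (SE 0.24). Stratum intermedium values were 487 in WT10 and 2311 in WT5, and at 2405 in KO1, 1711 in KO3 and 1335 in KO9. The WT libraries there were further apart than any of the KO libraries, and the difference of 0.73 (SE 0.61) became -0.39 without WT10.

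Ank (ENSMUSG00000022265, chromosome 15, 27466677 to 27594909, plus strand) had a lower mean in KO in both layers. In ameloblasts it was at 8186 in WT10 and 6237 in WT5, and at 4581 in KO1, 5985 in KO3 and 7551 in KO9, a log2 difference of -0.27 (SE 0.28). In the other layer it was at 3134 in WT10 and 6170 in WT5, and at 2065 in KO1, 4084 in KO3 and 3884 in KO9, a difference of -0.46 (SE 0.39) that became 0.030 without WT5. KO1 was the lowest library in both layers, and the genotypes overlapped in both. Across the 10 libraries, with each table centred on its own mean, Ank and Alpl had a Pearson r of -0.68, the most negative of the 15 pairs of these genes. The 10 points share 5 prefixes and are not independent.

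Among phosphate transporters, Slc20a2 (ENSMUSG00000037656, chromosome 8, 22476788 to 22569612, plus strand) encodes PiT-2, a sodium-phosphate cotransporter found in most tissues. Its values by genotype lay in opposite directions in the 2 layers. In ameloblasts it was at 4870 in WT10 and 2812 in WT5, and at 6050 in KO1, 6451 in KO3 and 4448 in KO9. The mean was higher in KO (log2 difference 0.59, SE 0.31, unadjusted p = 0.097 in limma), with KO9 below WT10. Without WT5 the difference was 0.20, and without WT10 it was 0.99. Across the stratum intermedium libraries it was at 4047 in WT10 and 4278 in WT5, and at 3797 in KO1, 3051 in KO3 and 2442 in KO9. There all 3 KO libraries lay below both WT libraries (log2 difference -0.45, SE 0.23, unadjusted p = 0.0873 in limma), as they did for 7.44% of all genes. With 1 library left out at a time this difference ranged from -0.61 to -0.29.

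The KO difference in Slc20a2 was larger in ameloblasts than in the stratum intermedium by 1.04 on the log2 scale (SE 0.38, unadjusted p = 0.0411, adjusted p = 0.864 in limma). Of 15567 genes in that test, 4.80% had an unadjusted p under 0.05 and 0% an adjusted one. The ameloblast minus stratum intermedium value was higher in all 3 KO prefixes than in both WT prefixes, as for 10.9% of all genes (22.4% were apart in either direction). Without each prefix in turn the difference ranged from 0.61 to 1.48. Smim19 overlaps exons of Slc20a2 on the opposite strand, and the counting is not stated to use strand.

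Slc20a1 (ENSMUSG00000027397, chromosome 2, 129198764 to 129211616, plus strand) encodes the paralogue PiT-1. In ameloblasts it was at 256 in WT10 and 350.1 in WT5, and at 250.2 in KO1, 273 in KO3 and 785 in KO9. KO9 stood alone, and the difference of 0.33 (SE 0.55) became -0.20 without it and 1.39 with sex in the fit. Stratum intermedium libraries had 468 in WT10 and 403 in WT5, and at 607 in KO1, 494 in KO3 and 790.0 in KO9. All 3 KO libraries lay above both WT libraries, as for 7.76% of all genes (log2 difference 0.51, SE 0.31, unadjusted p = 0.137 in limma). Exons of Slc20a1 overlap those of 9830144P21Rik and Gm4430 on the opposite strand, and the counting is not stated to use strand. Phospho1 was also highest in the KO9 library of ameloblasts, and the r of these 2 genes over the 10 centred libraries was 0.69.

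With Slc20a1 higher and Slc20a2 lower, the log2 ratio of Slc20a1 to Slc20a2 in the stratum intermedium was -3.26 ± 0.21 over the 2 WT libraries and -2.30 ± 0.58 over the 3 KO libraries (mean ± SD). The difference of 0.96 had an exact permutation p of 0.1, the smallest that 2 against 3 libraries allow, and an adjusted p of 0.6 over 6 ratio tests. In ameloblasts the same ratio differed by -0.26 (exact permutation p = 0.8, adjusted p = 0.9), with KO and WT overlapping. Alpl to Enpp1 differed by 0.32 in ameloblasts and -0.87 in the stratum intermedium (exact permutation p = 0.7 and 0.5), and Alpl to Phospho1 by -0.16 and -1.16 (exact permutation p = 0.9 and 0.3).

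Slc34a2 (ENSMUSG00000029188, chromosome 5, 53038081 to 53071664, plus strand) encodes NaPi-IIb. It was at 141 in WT10 and 61.8 in WT5, and at 31.2 in KO1, 68.5 in KO3 and 135 in KO9, a difference of -0.49 (SE 0.79). Each gene that a table lists reaches a value of 10 in 3 or more libraries, so any lower level of Slc34a2 in ameloblasts was not seen.

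**Figure D4:**
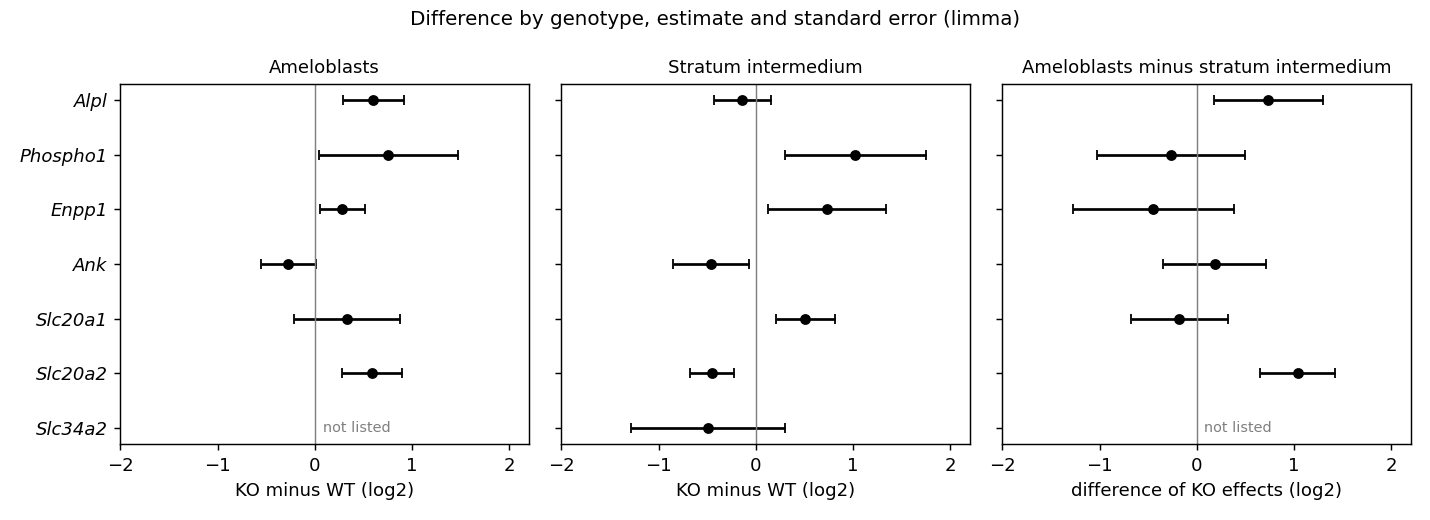
Log2 difference between KO and WT (point) with its limma standard error (bar) in each layer, and the difference between the layers' KO differences on the right. Slc20a2 lies at 0.59 and -0.45 in the 2 layers, and at 1.04 on the right, the point farthest from 0 in that panel.

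The library names also carry a group number from 1 to 3, which the labels do not explain. Group 1 holds WT5 and KO3, group 2 holds WT10 and KO9, and group 3 holds KO1 alone. Within these groups the Alpl difference was 0.35 and 0.80 in ameloblasts and -0.31 and -0.53 in the stratum intermedium. Slc20a2 differed by 1.20 and -0.13 in ameloblasts and by -0.49 and -0.73 in the stratum intermedium. Phospho1 differed in opposite directions within the groups in both layers, by -0.55 and 2.17 in ameloblasts and by -0.72 and 2.10 in the stratum intermedium. Slc20a1 differed by 0.29 and 0.75 in the stratum intermedium, and by -0.36 and 1.61 in ameloblasts. Enpp1 differed by 0.64 and -0.05 in ameloblasts and by -0.43 and 1.45 in the stratum intermedium, and Ank by -0.06 and -0.12 and by -0.60 and 0.31. Slc34a2 differed by 0.15 and -0.07.

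Both WT prefixes and KO9 were male, so with sex in the fit each difference is that of KO9 from the WT libraries. In ameloblasts it was then 2.03 for Phospho1 and 1.39 for Slc20a1. The other ameloblast values were 0.36 for Alpl, 0.14 for Enpp1, 0.080 for Ank and 0.27 for Slc20a2. Slc20a2 in the stratum intermedium was at -0.77. The remaining stratum intermedium values were -0.37 for Alpl, 1.17 for Phospho1, 0.33 for Enpp1, -0.18 for Ank, 0.86 for Slc20a1 and 0.53 for Slc34a2. With KO9 as the only male KO library, no p-values are given here for this fit. Female libraries were all KO, so no comparison within females can be made.

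Other genes of the pathway were followed in 7 lists, none of which had a gene past the adjusted threshold in either layer. Over all genes, 53% had a higher mean in KO ameloblasts (median 0.04) and 51.9% in the stratum intermedium (median 0.02). An unadjusted p under 0.05 in limma was found for 3.07% and 2.06% of all genes. The counts over all libraries below are to be read against these shares. Without WT10, 46.7% of all genes were higher in KO ameloblasts and 46.4% in the stratum intermedium. Without WT5 these shares were 49.8% and 49.7%. Counts without a WT library are to be read against those. Pairs of means ± SD below are over the 2 WT and then the 3 KO libraries. Of the genes around pyrophosphate, ATP release and extracellular nucleotides, 10 of 14 had a higher mean in KO ameloblasts, and the median difference was 0.41. With 1 library left out at a time the count ranged from 8 of 14, without WT10, to 11 of 14, without KO9, and the median was lowest, at 0.18, without KO1. Of these, 2 had an unadjusted p under 0.05, both paralogues of Enpp1. Enpp2 (autotaxin, a lysophospholipase) was at 2132 and 2626 in WT and at 9829, 13167 and 8199 in KO (log2 difference 2.11, SE 0.27, adjusted p = 0.989 in limma). In stratum intermedium libraries Enpp2 was at 18537 ± 12916 and 13662 ± 5822. Of the 9 stratum intermedium and papillary layer markers, 8 had a higher mean in KO ameloblasts (median 0.87), 5 with an unadjusted p under 0.05, and their part in this list was not tested. Enpp5 was at 843 and 964 in the WT libraries and between 1502 and 2327 in KO (log2 difference 0.97, SE 0.28). In the stratum intermedium 6 of 14 had a higher mean in KO (median -0.04), and Enpp5 there lay the other way, at 1634 and 1650 in WT and between 1120 and 1240 in KO (log2 difference -0.48, SE 0.20, adjusted p = 1 in limma). The ectonucleotidase Entpd2 was at 16.8 and 61.9 in WT and between 49.1 and 83.5 in KO.

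Of the GPI anchor genes, whose products attach alkaline phosphatase to the membrane, 20 of 24 had a higher mean in KO ameloblasts, against 53% of all genes. The median difference was 0.33, against 0.04 over all genes. Without WT5 that count was 13 of 24 with a median of 0.10, and without WT10 it was 21 of 24 with a median of 0.66. The stratum intermedium markers stood higher in the same KO ameloblast libraries, as given above, and their part in this list was not tested either. The 2 with an unadjusted p under 0.05 were Pigf, at 241 and 240.2 in WT and between 416 and 531 in KO, and Pigc, at 867 and 707 in WT and between 1225 and 1371 in KO. For the stratum intermedium 11 of 24 had a higher mean in KO (median -0.04), 0 with an unadjusted p under 0.05, and the count was 14 of 24 without WT10 and 8 of 24 without WT5. Pign there averaged 339 ± 151 and 566 ± 142, and Pigt, a subunit of the enzyme that transfers the anchor, 1971 ± 31.5 and 1518 ± 191.

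The zinc transporters that load alkaline phosphatase in the secretory pathway had a higher mean in KO ameloblasts in 3 of 3 cases (median 0.49), or 2 of 3 with quantile normalization. The median was 0.23 without WT5 and 0.76 without WT10. Slc30a7 averaged 1734 ± 719 in WT and 3456 ± 1028 in KO (unadjusted p = 0.0247, adjusted p = 0.989 in limma), and Slc30a6 1169 ± 301 and 1630 ± 262. The stratum intermedium count was 2 of 3 (median 0.04), or 1 of 3 without WT10 and 3 of 3 without WT5, with Slc30a7 at 1857 ± 753 and 1600 ± 315 and Slc30a5 at 1007 ± 271 and 1054 ± 56.5.

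Of the phosphate transport and sensing genes, 5 of 9 had a higher mean in KO ameloblasts (median 0.02) and 2 of 8 in the stratum intermedium (median -0.17), or 4 of 8 without WT5. Slc37a3 and Slc37a4, of the sugar-phosphate exchanger family, averaged 3005 ± 1720 and 645 ± 175 in WT ameloblasts and 5191 ± 356 and 1268 ± 681 in KO. The phosphate exporter Xpr1 averaged 2437 ± 121 and 1823 ± 772 in the stratum intermedium, and the receptor gene Fgfr1 7479 ± 1788 and 6248 ± 447. Slc34a1, Slc34a3, Slc17a1, Slc17a2, Slc17a3 and Fgf23 were listed in neither table.

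Of the phosphocholine and phosphoethanolamine genes, which handle the substrates of Phospho1, 9 of 12 had a higher mean in KO ameloblasts (median 0.18) and 7 of 12 in the stratum intermedium (median 0.02). The ameloblast count was 7 of 12 without KO1 and also with quantile normalization. The stratum intermedium count was 2 of 12 (median -0.25) without WT10 and 11 of 12 (median 0.31) without WT5. Phospho2 averaged 596 ± 47.7 and 951 ± 168 in ameloblasts, and Etnppl 47.8 ± 23.2 and 116 ± 11.8, each with an unadjusted p under 0.05 and an adjusted p of 0.989 in limma. With any 1 KO library left out, 0 of the 12 genes had an unadjusted p under 0.05 in ameloblasts. Gde1 averaged 1770 ± 194 in WT and 2244 ± 86.2 in KO stratum intermedium, and Smpd3, the sphingomyelinase that yields phosphocholine, 1493 ± 1347 and 2117 ± 453. Vitamin B6 genes, whose phosphorylated product is a substrate of alkaline phosphatase, had a higher mean in KO in 2 of 4 cases in ameloblasts (median 0.01) and 1 of 4 in the stratum intermedium (median -0.21). Plpbp averaged 672 ± 118 and 824 ± 63.4 in ameloblasts and Pdxp 58.8 ± 5.45 and 45.5 ± 16.0. Stratum intermedium means were 18.1 ± 5.50 in WT and 60.9 ± 31.2 in KO for Pdxp. Of the other alkaline phosphatases, Akp3 was listed in ameloblasts only, at 0 in KO9 and at up to 100.4, in WT10.

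**Figure D5:**
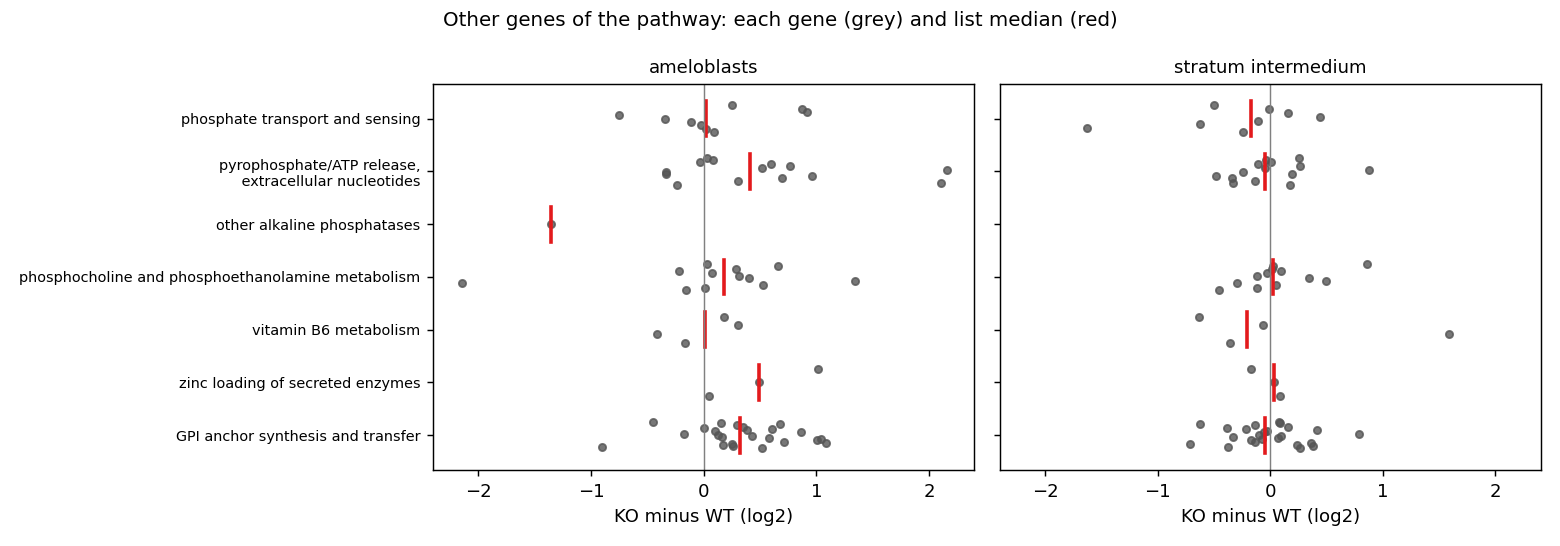
Log2 difference between KO and WT of each listed gene (grey points) and the median of its list (red bar) in ameloblasts and stratum intermedium. The GPI anchor list has its median at 0.33 in ameloblasts and -0.04 in the stratum intermedium.

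The genes with profiles most like each of these were sought over the 10 libraries, centred within each table, among 11308 genes with a mean of at least 100 in both. For Alpl they were Cyp2d22 (Pearson r = 0.96), Trim56 (0.96), Ripk4 (0.95), Col23a1 (0.94) and Map7 (0.93). Phospho1 was most like Cc2d1b (0.94) and Mbip (0.94), and Enpp1 most like Rnf167 (0.97) and Neurl1a (0.96). Ank was most like Il10 (0.97) and Gm42793 (0.96), Slc20a1 most like Fbxo31 (0.93) and Gm28875 (0.92), and Slc20a2 most like Rerg (0.94) and Mpzl2 (0.92). None of the 15 pairs among these genes reached those values. Libraries share prefixes, and the highest r among so many genes is high by selection.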

How the data were processed

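RNA was measured in 10 libraries, 5 per layer. Per the labels' protocols, frozen sections were captured within 2 h, and a TruSeq kit gave stranded libraries of polyA RNA. The signal values are normalized counts, deposited in a table for each layer that the submitters named as DESeq2 output with outliers left out, on Ensembl release 101. The submitters' processing notes name FastQC, featureCounts, DESeq, Picard 2.8.1, STAR 2.5.2b and the build GRCm38, and no settings. Low values are not whole steps, so read depth is unknown and no count test was run. Columns were matched by library name, and 0 were unused.

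Within a table, log2(normalized count + 1) was tested with limma 3.58.1 (trend, two-sided; R 4.3.3) where a gene's mean reached 10, adjusting by Benjamini-Hochberg over all genes at a threshold of 0.05. The difference between layers used the ameloblast minus stratum intermedium value of each prefix. Ratios used exact permutation, two-sided, over 10 arrangements of libraries or sign flips of 5 pairs. The genes named were the 7 members, the 2 with the smallest p per layer from each list with at least 3 genes tested, and the most correlated genes. One gene under this rule is not reported here. The members and lists were chosen with earlier results of these data known. Limma was tested on simulated data. Over 16212 ameloblast genes it recovered 29% of genes with a true log2 change of 2 and 59.5% of those with 4. Over 16543 stratum intermedium genes it recovered 30.5% and 74%. Each run had 200 changed genes, with 4 and 2 false calls in ameloblasts and 2 and 6 in the stratum intermedium. The simulated noise was independent between genes, so variation shared by many genes of a library was left out. The recovered shares may therefore not hold for the real libraries. Replicate numbers were shared by WT and KO, and same-numbered libraries were not taken as pairs. Their deviations from the genotype means correlated at -0.186 to 0.0862. With 2 WT libraries the WT deviations mirror each other, so these correlations cannot decide whether the numbers mark pairs. Libraries of WT and KO with the same library group number correlated at 0.00593 to 0.273. The closing section names the alternatives, of which other scalings between layers were added after the data were seen. Figures used matplotlib 3.10.9 in Python 3.11.15.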

Additional observations from a re-analysis of the deposited data

Results flagged for a closer look

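The difference between layers in the log2 ratio of Alpl to Enpp1 was 4.08 for prefix WT10, far above the other 4 pairs, which lay between 0.25 and 1.25. The gap to the nearest pair was 0.74 of the whole range, above the critical value of 0.71 for 5 pairs (Dixon's test at 95%), which chance passes in about 1 of 20 groups. It was the only one of 9 layer differences, 3 ratios and 6 gene levels, to pass.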

How the results depend on the processing

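No gene passed the adjusted threshold in either layer, or in the difference between layers, under any alternative: quantile normalization, robust variance, a pseudocount of 0.5 or 8, a minimum mean of 50 or none, sex, library group number or replicate number in the fit, and each library left out. Of 706 alternative values other than these counts, 672 kept their direction and 34 changed it, 27 of them among the 290 with a library or prefix left out. Robust variance and the minimum mean leave each KO minus WT difference unchanged, so they could not turn a direction. Both block fits repeat differences with a library left out, as given below. The 672 are thus not all separate checks. With sex in the fit, Ank in ameloblasts turned to 0.080, Slc34a2 in the stratum intermedium to 0.53, and the difference between layers to 0.86 for Phospho1 and 0.53 for Slc20a1. With the library group number as a block, these last 3 turned to 0.041, 0.12 and 0.10. KO1 is alone in its group, so this block gives the same differences as leaving KO1 out. The fit with sex gives those of KO9 from the WT libraries. What sets KO1 or KO9 apart was not tested. The replicate block gave 0 called genes in both layers, with Alpl at 0.51 in ameloblasts and -0.02 in the stratum intermedium. Only KO has a replicate 3, which is KO3 in ameloblasts and KO9 in the stratum intermedium. The block therefore gives the same differences as leaving that library out. It could not be fitted to the difference between layers, which is already paired by prefix.

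Leaving out 1 library at a time, log2 differences in the stratum intermedium ranged from -0.42 to 0.031 for Alpl, -0.95 to 0.030 for Ank, -0.39 to 1.85 for Enpp1, -1.08 to 0.10 for Slc34a2, -0.035 to 1.78 for Entpd2, -0.49 to 0.0052 for Fgfr1, -0.19 to 0.37 for Slc30a5, -0.60 to 0.25 for Slc30a7 and -0.23 to 1.95 for Smpd3. Slc20a1 in ameloblasts ranged from -0.20 to 0.63. The difference between layers ranged from -0.50 to 0.87 for Ank, -1.76 to 0.87 for Enpp1, -1.05 to 0.52 for Phospho1 and -0.53 to 0.16 for Slc20a1. The KO minus WT log2 ratio of Alpl to Enpp1 ranged from -0.32 to 0.95 in ameloblasts and -2.15 to 0.41 in the stratum intermedium. In ameloblasts that of Slc20a1 to Slc20a2 ranged from -0.95 to 0.36 and that of Alpl to Phospho1 from -0.83 to 0.60. The level of Phospho1, stratum intermedium minus ameloblasts, ranged from -0.40 to 0.13. With 1 WT library left, it was assumed to vary like the KO libraries. Unknown read depth and 2 WT libraries limit what the genes with low values can show.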
